A study of Mus musculus with 4 samples.

Results

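The complement components and receptors described here are the 9 rows of the deposited expression table named C1qa, C1qb, C1qc, C3, C4b, Cfb, Cfp, C3ar1 and C5ar1, out of 13834 rows. All 9 were found once, and all 9 passed the filter on low counts that left 12542 genes. RNA was sequenced from peritoneal macrophages of 2 Dnmt1fl/fl samples, labelled as wild type and carrying the floxed Dnmt1 gene, and 2 Dnmt1KO samples, labelled as a myeloid-specific knockout. Dnmt1KO mice carry the same floxed gene with Cre recombinase driven by the LysM promoter, which is active in myeloid cells and not in macrophages alone. According to the methods, peritoneal macrophages came from mice that were 10 weeks old and had received 2 ml of 4% thioglycolate broth into the abdomen 3 days earlier, so that recruited as well as resident cells were washed out. The same protocol then put the cells into culture with fetal bovine serum. How long the sequenced cells were cultured, if at all, is not stated. Whether each sample was 1 mouse or a pool is not stated, and p-values therefore measure only the spread between these samples.

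Complement is a set of plasma and cell-surface proteins that mark microbes and dying cells for removal. C1q recognises a target and starts the classical pathway, in which C4 is cleaved early. The alternative pathway uses factor B (Cfb) and properdin (Cfp) to build and stabilise the convertase that cleaves C3, the protein on which all pathways meet, and the cleavage fragments C3a and C5a attract and activate leukocytes through the receptors C3ar1 and C5ar1. The liver makes most plasma complement, whereas macrophages are a main source of C1q and properdin and carry both receptors.

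Totals ran from 20228071 to 24198943 counts per sample. Levels are given as counts scaled to a common library size with TMM factors (CPM), and as CPM per kb of exon where genes are compared with each other. Dnmt1, the deleted gene, was at 86.6 and 67.0 CPM in Dnmt1fl/fl and at 37.0 and 42.7 CPM in Dnmt1KO samples. Its transcript was thus lower in both Dnmt1KO samples but still present, a difference without an adjusted p under 0.05 in edgeR. All 10 macrophage markers were listed, from Csf1r, the steadiest at 1011 to 1126 CPM, to Cd163 at 6.97 to 50.5 CPM. Their sum was lower in both Dnmt1KO samples, at 34670 and 33120 CPM in Dnmt1fl/fl and 16590 and 20740 CPM in Dnmt1KO, and most of the sum was Lyz2, the gene of the LysM promoter, at 29530 and 28590 against 11350 and 15740 CPM. The other 9 macrophage markers summed to 5139 and 4529 CPM in Dnmt1fl/fl and to 5243 and 5000 CPM in Dnmt1KO samples, where the genotypes overlapped. Dnmt1KO replicate 1 stood apart from the other samples. Its 9 listed neutrophil markers summed to 927 CPM against 227 to 333 CPM elsewhere, its 8 B cell markers summed to 132 CPM against 329 to 542 CPM, and genes with 1 kb of exon were on average 0.28 higher on the log2 scale than in the mean of the samples. Fewer cells of a type and less RNA per cell cannot be told apart in such bulk samples.

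The C1q genes lie side by side on the minus strand of chromosome 4, within 18.7 kb (GRCm38, GENCODE M21). C1qb spans chr4:136880129-136886187, C1qc chr4:136889804-136893065 and C1qa chr4:136895917-136898803, each with 3 exons. C3 (chr17:57203970-57228136), C4b (chr17:34728380-34743882) and Cfb (chr17:34856374-34862518) are on chromosome 17. There C4b and Cfb lie with C4a and C2 in one stretch of 170 kb. Cfp is on the X chromosome at chrX:20925454-20931555, C3ar1 at chr6:122847138-122856161 and C5ar1 at chr7:16246743-16259540.

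Dnmt1 copies methylation at CG pairs of DNA when cells divide, so the bases before the gene starts are shown with their CG pairs in capitals for 2 neighbouring C1q genes, whose levels moved together, and for C3, the gene with the largest coefficient of variation of the 9 (66.1%). They are RefSeq sequences of GRCm38.p6, on the minus strand and written 5′ to 3′ toward the gene. Methylation was not measured in these samples. The first covers chr4:136886201-136886450, the second chr4:136893066-136893164 and the third chr17:57228137-57228386.
C1qb: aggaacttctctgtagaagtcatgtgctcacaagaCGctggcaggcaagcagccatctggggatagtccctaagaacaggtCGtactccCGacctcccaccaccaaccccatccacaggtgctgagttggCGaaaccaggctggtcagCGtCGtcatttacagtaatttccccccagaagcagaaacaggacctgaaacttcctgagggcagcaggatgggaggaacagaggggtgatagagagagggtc
C1qc: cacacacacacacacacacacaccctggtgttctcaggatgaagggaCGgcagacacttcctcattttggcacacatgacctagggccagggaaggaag
C3: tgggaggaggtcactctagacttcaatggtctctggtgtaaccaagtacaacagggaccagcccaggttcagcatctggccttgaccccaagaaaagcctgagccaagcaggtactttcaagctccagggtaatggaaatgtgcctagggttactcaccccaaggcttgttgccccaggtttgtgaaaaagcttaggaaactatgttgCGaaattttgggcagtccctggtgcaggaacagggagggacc

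The table of RefSeq promoters used here matched 6 of the 9 genes, and C1qa, C4b and Cfb were not among them. In the 250 bases before the start, C1qb held 6 CG pairs, C3ar1 5, C1qc, Cfp and C5ar1 2 each, and C3 1. The median over 32851 such windows was 6, and 18.8% of windows had as few as C3. Of these windows 151 bases in C1qc, 202 in C5ar1, with both of its CG pairs, and 4 in C3ar1 lie inside the GENCODE gene, and for C1qc only the part outside it is printed. On both strands, GAGGAAGT, a sequence of the PU.1 type, was found in the C1qc window and in 2.44% of all windows, and TTGCNNAA, of the C/EBP type, was found in the C3 window, where it includes the single CG pair, and in 9.56% of all windows. The other sequences searched were those of the ISRE type (2.98% of windows) and the NF-kB type (1.21%), TTCNNNGAA of the STAT type (7.02%) and TATAAA (12.4%), of which TATAAA alone was found, in the C3ar1 window. These are matches of letters and not measured sites.

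Per kb of exon the C1q chains were the most abundant of the 9 genes. C1qb averaged 1322 ± 152 CPM per kb (SD, n = 4), C1qa 858 ± 161 and C1qc 494 ± 67.0. Properdin followed with 359 ± 36.0 CPM per kb, then C3ar1 with 228 ± 18.4 and C5ar1 with 95.9 ± 26.1. The order of these 6 genes was identical in all 4 samples, and no range overlapped that of its neighbour. Cfb (47.6 ± 25.4 CPM per kb), C3 (41.1 ± 27.2) and C4b (40.2 ± 20.02) came last, and their ranges overlapped each other, while that of Cfb also overlapped C5ar1. All of the C1q chains were at or above percentile 99.4 of the tested genes with a known length, and C4b, the lowest of the 9, was at percentile 90.8. The length of C1qc in GENCODE is 1931 bases, and a shorter transcript in use would raise its level per kb.

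**Figure D1:**
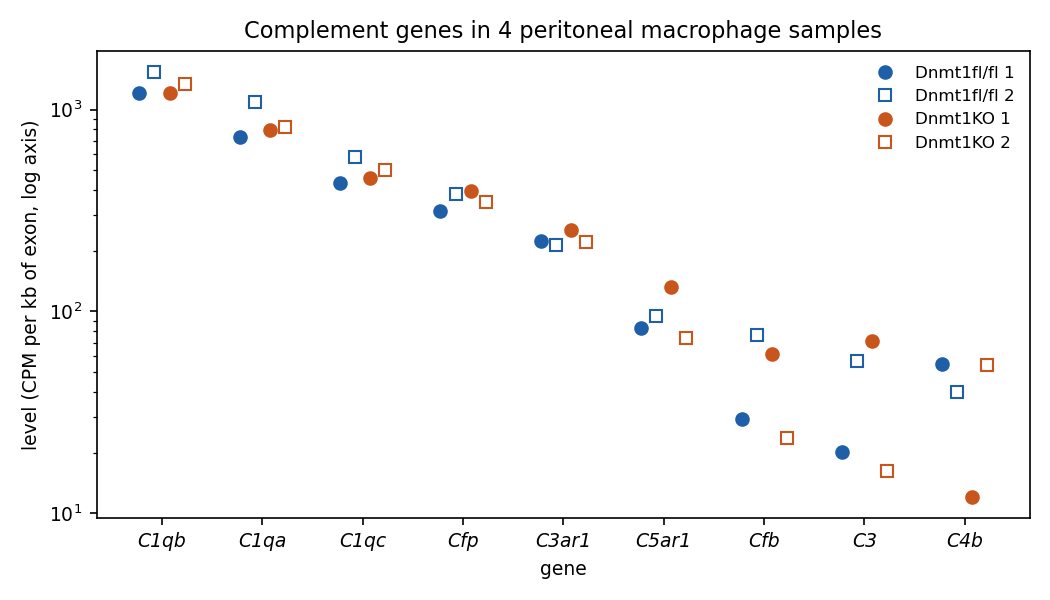
Level of each complement gene in CPM per kb of exon (log axis) in the 4 samples, with blue for Dnmt1fl/fl, orange for Dnmt1KO, filled circles for replicate 1 and open squares for replicate 2. The 6 genes from C1qb to C5ar1 keep their order in every sample. Cfb and C3 spread widely within each genotype, and C4b within Dnmt1KO.

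The comparison of Dnmt1KO with Dnmt1fl/fl asks how loss of Dnmt1 bears on macrophage expression. None of the 9 complement genes differed between the genotypes by edgeR's quasi-likelihood test, with unadjusted p from 0.475 to 0.819 and an adjusted p of 1.00 for each. Over the whole table, 0 of 12542 genes had an adjusted p under 0.05 (0%) in edgeR, 1 in DESeq2 and 0 in limma-voom, and 35 (0.279%) had an unadjusted p under 0.05 in edgeR, 0.112% higher and 0.167% lower in Dnmt1KO. The genotypes overlapped in all 9 complement genes, against 16.7% of tested genes in which they did not overlap (8.14% higher and 8.56% lower in Dnmt1KO). The log2 fold change was above 0 for 4 genes and below 0 for 5, with a median of -0.0815 beside 0.0046 for all genes tested. In each of the 9 genes the mean difference between samples of one genotype was larger than the genotype difference, as in 83.1% of all tested genes. With 1 sample left out, C4b had an adjusted p under 0.05 in edgeR without Dnmt1KO replicate 2, where 8.32% of all genes did, and none of the 9 genes had one without another sample. Of all genes, 0.0155% had one without Dnmt1fl/fl replicate 1, 0.0781% without Dnmt1fl/fl replicate 2 and 0% without Dnmt1KO replicate 1. Each fit without 1 sample, of either genotype, holds a single sample of that genotype. It takes its spread from the samples of the other genotype alone and assumes that the lone sample varies like them. The smallest p that exact permutation of 2 against 2 samples allows is 0.333 (two-sided).

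**Figure D2:**
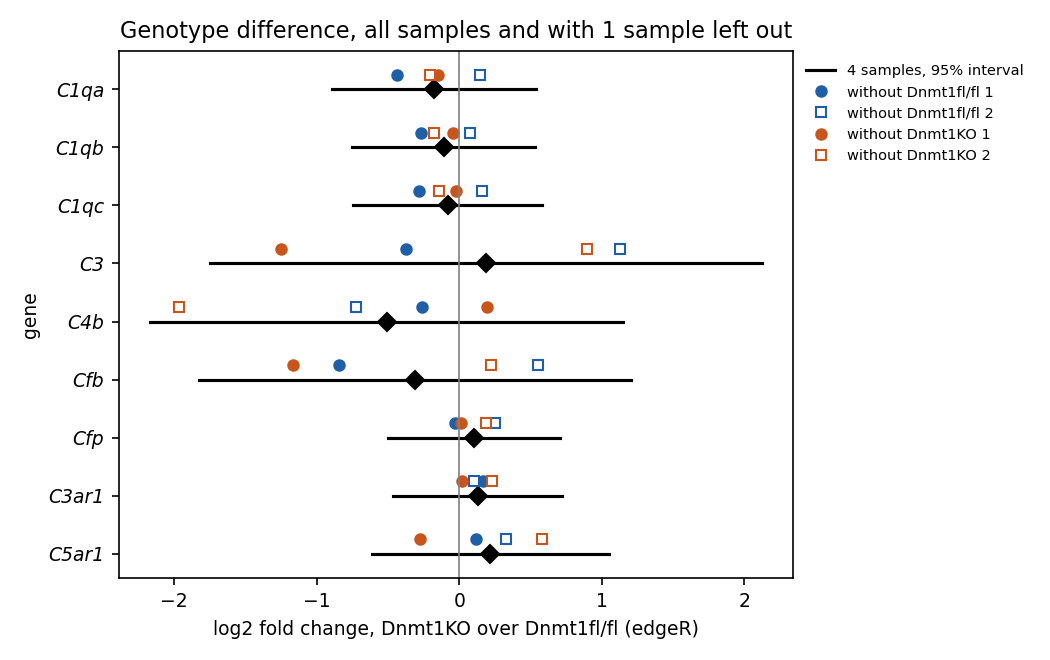
Log2 fold change of Dnmt1KO over Dnmt1fl/fl from edgeR with all 4 samples (black diamonds, with 95% intervals as black lines) and with each sample left out in turn (coloured points, filled for replicate 1 and open for replicate 2). The points of C3, C4b and Cfb scatter from -1.97 to 1.13, and those of the other genes from -0.44 to 0.58.

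C1qa, C1qb and C1qc encode the A, B and C chains that assemble into C1q. C1qa was at 758 and 1135 CPM in Dnmt1fl/fl replicates 1 and 2 and at 819 and 856 CPM in Dnmt1KO replicates 1 and 2. Both Dnmt1KO samples lay between the Dnmt1fl/fl samples. The group levels were 947 ± 267 CPM (SD, n = 2) and 837 ± 26.0 CPM (SD, n = 2), a log2 fold change of -0.18 with a 95% interval from -0.89 to 0.54.

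C1qb was at 1319 and 1669 CPM in Dnmt1fl/fl and at 1319 and 1448 CPM in Dnmt1KO samples. Dnmt1fl/fl replicate 2 was again the highest sample, and the lowest values of the genotypes were nearly equal. Its log2 fold change was -0.11 (95% interval -0.76 to 0.53, edgeR).

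C1qc was at 831 and 1129 CPM in Dnmt1fl/fl and at 889 and 964 CPM in Dnmt1KO samples, with the Dnmt1KO values inside the Dnmt1fl/fl range. Its log2 fold change was -0.08 (95% interval -0.74 to 0.58, edgeR). Without Dnmt1fl/fl replicate 2, the sample with the most C1q, the sign turned for all of the chains, to 0.15 for C1qa, 0.07 for C1qb and 0.16 for C1qc.

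Summed over the chains, C1q took 2908 and 3934 CPM in Dnmt1fl/fl and 3027 and 3268 CPM in Dnmt1KO samples. The genotypes overlapped, with a log2 ratio of means of -0.12 beside a pooled SD between replicates of 0.22 (exact two-sided permutation p = 1.00). The chains kept a nearly fixed proportion across samples. The ratio of C1qb to C1qc counts was 1.59 and 1.48 in Dnmt1fl/fl and 1.48 and 1.501 in Dnmt1KO samples, a range of 1.07-fold. C1qb to C1qa ranged 1.18-fold, from 1.47 (exact 95% counting interval 1.45 to 1.49) in Dnmt1fl/fl replicate 2 to 1.74 (1.71 to 1.78) in Dnmt1fl/fl replicate 1. These intervals cover counting error only.

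Centred on each gene's own mean over the 4 samples, C1qb and C1qc differed by a root mean square of 0.04 on the log2 scale, and C1qa differed from them by 0.09 and 0.07. The profile of the chains was most closely followed by H2-T24, at a root mean square difference of 0.02, Rab27a at 0.03 and Mplkip at 0.03, among 9181 genes that reached 100 counts in each of the 4 libraries. The chains themselves differed from their mean profile by 0.02 for C1qc, 0.04 for C1qb and 0.05 for C1qa, so H2-T24, Rab27a and Mplkip lay nearer to it than C1qb and C1qa did. These values describe 4 samples only.

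C3 is the central component that is cleaved to C3a and C3b. It was at 104 and 291 CPM in Dnmt1fl/fl replicates 1 and 2, and at 367 and 83.1 CPM in Dnmt1KO replicates 1 and 2. One sample of each genotype was high and the other low, 2.81-fold apart in Dnmt1fl/fl and 4.41-fold apart in Dnmt1KO. The log2 fold change of 0.19 had a 95% interval from -1.75 to 2.13, so even a change of 1 in either direction lay within it. The direction rested on single samples, with -0.37 without Dnmt1fl/fl replicate 1, 1.13 without Dnmt1fl/fl replicate 2, -1.25 without Dnmt1KO replicate 1 and 0.89 without Dnmt1KO replicate 2.

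Cfb encodes factor B, the protease of the alternative pathway convertase. It was at 82.5 and 215 CPM in Dnmt1fl/fl and at 174 and 66.5 CPM in Dnmt1KO samples. The samples high in C3 were also high in Cfb, by 2.61-fold within each genotype. Its log2 fold change was -0.31 (95% interval -1.83 to 1.204, edgeR), and it became 0.55 without Dnmt1fl/fl replicate 2, 0.22 without Dnmt1KO replicate 2 and -1.17 without Dnmt1KO replicate 1. In GENCODE 79.5% of the exonic length of Cfb is shared with Gm20547, an overlapping gene on the same strand, and how reads were divided between them is not stated.

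Without Dnmt1KO replicate 1, C3 and Cfb had unadjusted p of 0.0301 and 0.0308 in edgeR, in a fit with a lone knockout sample where 2.73% of all genes had one under 0.05, with an adjusted p of 1.00 each. Of the 9 genes, C3 and Cfb were the 2 whose samples differed by at least 1 on the log2 scale within both genotypes, as did 2.94% of all tested genes. In both, Dnmt1fl/fl replicate 2 and Dnmt1KO replicate 1 were the high samples, a pattern of this size found in 1.36% of tested genes. Per sample, the ratio of C3 to Cfb counts was 1.26 and 1.35 in Dnmt1fl/fl and 2.11 and 1.25 in Dnmt1KO.

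The summed markers of neutrophils, fibroblasts and mesothelial cells, but not those of B cells, T cells or eosinophils and mast cells, were also highest in Dnmt1KO replicate 1 and next in Dnmt1fl/fl replicate 2. In the sample order Dnmt1fl/fl 1 and 2, then Dnmt1KO 1 and 2, the 9 neutrophil markers listed of 10 summed to 229, 333, 927 and 227 CPM. The 7 fibroblast markers summed to 47.0, 68.2, 134 and 31.1 CPM and the 8 mesothelial markers to 8.43, 11.2, 17.3 and 6.40 CPM. Both of the higher samples exceeded the other sample of their genotype in 6 of the 9 neutrophil, 5 of the 7 fibroblast and 6 of the 8 mesothelial markers. The table lists only genes above 0 in every sample, so no listed marker was at 0, and Ngp of the neutrophil list was not in it. The defining mesothelial marker Msln was between 0.466 and 1.46 CPM, and lower in Dnmt1fl/fl replicate 2 than in replicate 1. Lrrn4 of that list, and Retnlg, Csf3r and Mmp8 of neutrophils, were also lower in Dnmt1fl/fl replicate 2. S100a9 of neutrophils was between 5.55 and 320 CPM. The part of these cells in the C3 and Cfb levels was not tested.

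**Figure D3:**
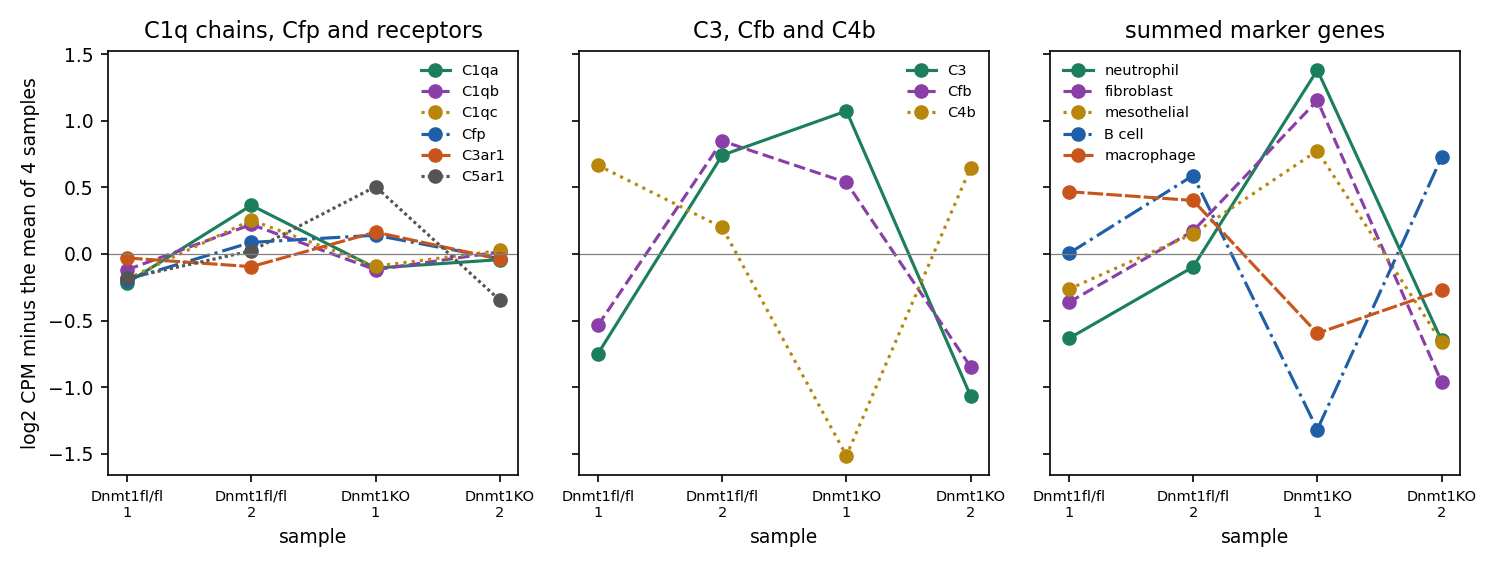
Log2 CPM of each gene, or of a summed marker list, minus its mean over the 4 samples, which stand on the horizontal axis with lines only to guide the eye. The C1q chains, Cfp and C3ar1 stay near 0, and C3 and Cfb are high in Dnmt1fl/fl replicate 2 and Dnmt1KO replicate 1. C4b is lowest in Dnmt1KO replicate 1, as are the B cell and macrophage lists.

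C4b encodes complement C4, which is cleaved after C1q binds its target. It was at 313 and 226 CPM in Dnmt1fl/fl and at 69.0 and 309 CPM in Dnmt1KO samples. A single sample, Dnmt1KO replicate 1, was low, 4.48-fold below Dnmt1KO replicate 2, which was close to Dnmt1fl/fl replicate 1. The log2 fold change was -0.51 (95% interval -2.17 to 1.15, edgeR). It was 0.20 without Dnmt1KO replicate 1. Without Dnmt1KO replicate 2 it was -1.97 with an adjusted p of 0.00367 in edgeR, a fit with Dnmt1KO replicate 1 as the lone knockout sample.

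The near-identical gene C4a, named here because of its likeness, shares 15.2% of the 100-base stretches of C4b. Its level was 2.53 and 2.07 CPM in Dnmt1fl/fl and 0.253 and 3.01 CPM in Dnmt1KO samples, far below C4b and also lowest in Dnmt1KO replicate 1. Of the 9 complement genes, C4b and Cfb alone shared such stretches with another gene. All 8 B cell markers were also lower in Dnmt1KO replicate 1 than in replicate 2, with sums of 329, 493, 132 and 542 CPM in the 4 samples, as were all 8 markers of resident large peritoneal macrophages, with sums of 1094, 1353, 761 and 1055 CPM. The 8 markers of recruited monocytes and small peritoneal macrophages summed to 6259, 4971, 3353 and 6176 CPM, and 6 were lower in Dnmt1KO replicate 1 than in replicate 2. This sum, in which Cd74, H2-Aa and H2-Ab1 were largest, ordered the 4 samples as C4b did, unlike the B cell and resident sums. Of single markers, Cd74, H2-Aa and Retnla of this list had that order. Prg4, Alox15, Garnl3 and Tgfb2 of the resident list had it too, and no other marker of these lists did. The part of these cells in the level of C4b was not tested. The ratio of C3 to C4b counts ranged 19.8-fold between samples, from 0.269 in Dnmt1KO replicate 2 to 5.31 in Dnmt1KO replicate 1.

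Cfp encodes properdin, which stabilises the alternative pathway convertase. It was at 543 and 659 CPM in Dnmt1fl/fl and at 684 and 605 CPM in Dnmt1KO samples. The values interleaved, and their coefficient of variation over the 4 samples, 10.02%, was at percentile 20.3 among tested genes. Its log2 fold change was 0.10 (95% interval -0.50 to 0.71, edgeR), and -0.03 without Dnmt1fl/fl replicate 1.

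C3ar1 encodes the receptor for C3a. It was the steadiest of the 9 genes, at 957 and 915 CPM in Dnmt1fl/fl and at 1095 and 951 CPM in Dnmt1KO samples. Dnmt1KO replicate 1 was the highest, and Dnmt1KO replicate 2 lay between the Dnmt1fl/fl samples. The log2 fold change of 0.13 (95% interval -0.46 to 0.72, edgeR) was positive in all fits, from 0.02 without Dnmt1KO replicate 1 to 0.23 without Dnmt1KO replicate 2.

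C5ar1 encodes the receptor for C5a. It was at 212 and 244 CPM in Dnmt1fl/fl and at 341 and 189 CPM in Dnmt1KO samples. The Dnmt1KO samples enclosed the Dnmt1fl/fl samples, with replicate 1 the highest of all and 1.81-fold above replicate 2. Its log2 fold change was 0.22 (95% interval -0.62 to 1.05, edgeR), and -0.27 without Dnmt1KO replicate 1. Without Dnmt1KO replicate 2 it was 0.58, with an unadjusted p of 0.0195 and an adjusted p of 0.106 in edgeR, in the fit with a lone knockout sample where 27.6% of all genes had an unadjusted p under 0.05. C5ar1 is also carried by neutrophils, whose markers were highest in the same sample, and their part in its level was not tested. The ratio of C3ar1 to C5ar1 counts was 4.52 and 3.75 in Dnmt1fl/fl and 3.21 and 5.04 in Dnmt1KO samples (exact two-sided permutation p = 1.00), so it did not separate the genotypes.

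Of 44 other complement genes on a list of proteases, regulators, terminal components and receptors, 25 were in the table and 23 were tested. Among the 23, 0 had an unadjusted p under 0.05 in edgeR, DESeq2 or limma-voom. Of all 12542 genes tested, only 35 (0.279%), 39 and 40 had one in these fits. The median log2 fold change was -0.04, beside 0.0046 for all genes tested, with 9 genes above 0 and 14 below. In 3 of the 23 the genotypes did not overlap, against 16.7% of all tested genes. These were C1ra, a protease bound to C1q, Cd59a, an inhibitor of the membrane attack complex, and Fcna, a ficolin of the lectin pathway. Cd59a was chosen after its values were seen.

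Fcna was at 132 and 137 CPM in Dnmt1fl/fl and at 43.0 and 126 CPM in Dnmt1KO samples. As in C4b, the low value came from Dnmt1KO replicate 1, and the log2 fold change was -0.67 (95% interval -1.91 to 0.57, edgeR). Without Dnmt1KO replicate 2 it was -1.64 with an adjusted p of 0.00336 in edgeR, again with a lone knockout sample. C1ra was higher in both Dnmt1KO samples, at 13.2 and 14.6 CPM against 12.4 and 10.7 CPM, with a log2 fold change of 0.26 (95% interval -0.38 to 0.91, edgeR). Cd59a was near 2 CPM in Dnmt1fl/fl, at 1.80 and 2.51 CPM, and at 2.88 and 3.14 CPM in Dnmt1KO samples.

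Of the regulators, 8 of the 15 written were tested, 3 with a log2 fold change above 0 and 5 below. Cr1l, the membrane regulator Crry, was at 105 and 114 CPM in Dnmt1fl/fl and at 105 and 112 CPM in Dnmt1KO samples, a log2 fold change of -0.02 with the narrowest interval of the list, -0.54 to 0.51.

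Of the other receptors and C1q-binding proteins, all 9 were tested, 4 above 0 and 5 below. Itgam and Itgb2 encode the chains of complement receptor 3, which binds fragments of C3. Itgam was at 1785 and 2206 CPM in Dnmt1fl/fl and at 2094 and 1758 CPM in Dnmt1KO samples, and Itgb2 at 1964 and 2460 CPM against 3176 and 1807 CPM. The genotypes overlapped in both genes, with log2 fold changes of -0.05 and 0.17. Of the 8 terminal components and factor D, C6 alone was tested, at 0.152 to 0.585 CPM, and the late components that form the membrane attack pore were otherwise not among the tested genes.

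**Figure D4:**
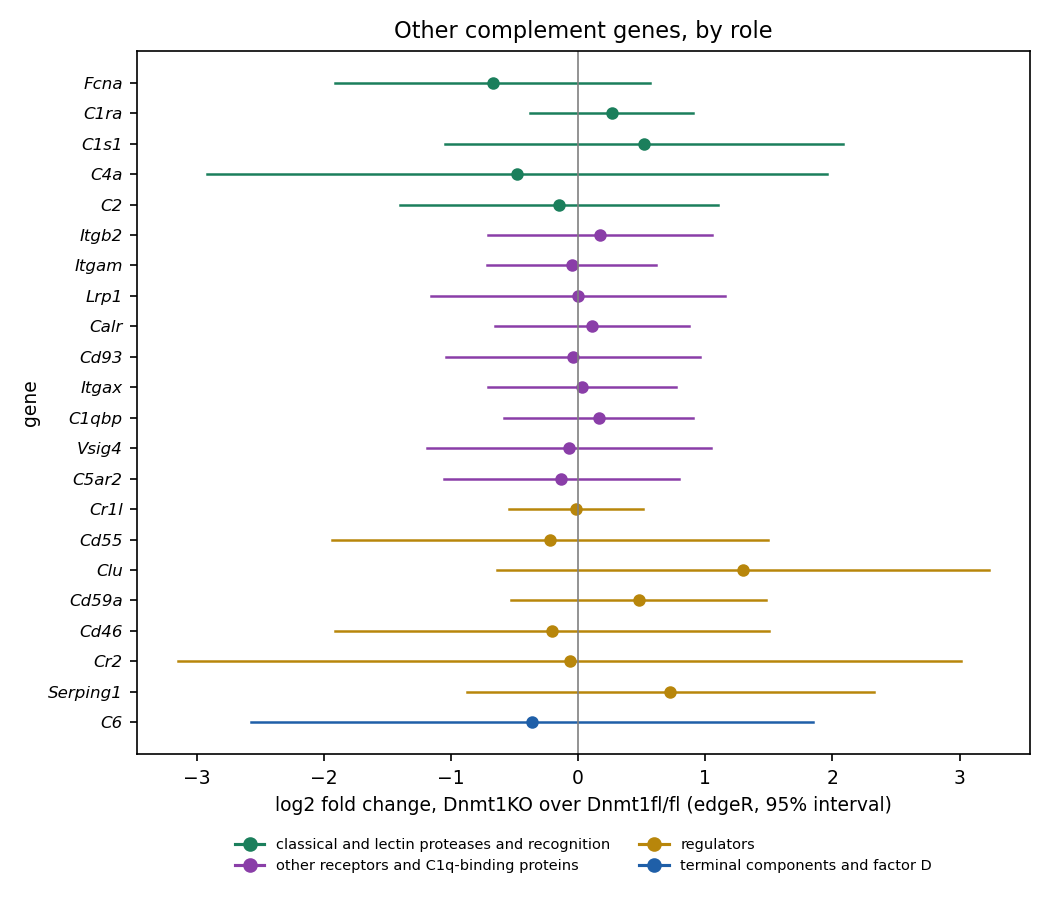
Log2 fold change of Dnmt1KO over Dnmt1fl/fl (points) with 95% intervals (lines) from edgeR for the other complement genes tested and reported, coloured by role. Every interval shown includes 0, from the narrow one of Cr1l to those of Cr2 and C4a, which were at low levels.

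Without Dnmt1KO replicate 2, 10 of the 23 genes had an unadjusted p under 0.05 in edgeR, in a fit where 27.6% of all genes did. Without Dnmt1fl/fl replicate 2 there was 1, Clu, beside 0.656% of all genes. Clu, an inhibitor of the terminal pathway also called clusterin, was chosen after its values were seen. Its samples were at 1.85 and 2.91 CPM in Dnmt1fl/fl and at 9.85 and 1.95 CPM in Dnmt1KO, so that only Dnmt1KO replicate 1 was high.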

How the data were processed

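The authors isolated total RNA from peritoneal macrophages, prepared libraries with a NEBNext kit, aligned paired-end reads with HISAT2 2.0.5 and counted them per gene with featureCounts 1.5.0-p3. The submitters' processing notes name mm10, and the annotation and the use of strand are not given in the sources used here. Gene values were deposited as estimated counts with no normalization, of which 72.6% to 76.4% per sample were whole numbers. A shorter deposited table repeats rows of the whole table and was not used.

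Counts were rounded, filtered with filterByExpr and scaled with TMM (factors 0.910 to 1.04). Genotypes were compared with edgeR 4.0.16 in R 4.3.3 by the two-sided quasi-likelihood test, p-values being adjusted by Benjamini-Hochberg across 12542 genes, without a replicate block. The common dispersion was 0.0837, and 3 counts correspond to 0.120 to 0.151 CPM, a floor that covers counting error only. The fit was tested on simulated counts. Intervals are 95%, from the quasi-likelihood statistic. Alternatives were limma-voom (limma 3.58.1), DESeq2 1.42.0, another scaling, 2 other filters, a replicate block, a length correction by loess (span 0.5) and leaving out each sample. Exact tests used SciPy 1.17.1. Gene positions and exonic lengths are from GENCODE M21 (GRCm38), joined by symbol, and a length was found for 98.7% of tested genes. Sequences before gene starts are from RefSeq.

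The 9 genes and the other lists were chosen with earlier results of these data known. All 9 are named. Of the other complement genes, the text names those with an unadjusted p under 0.05, or otherwise the 2 of highest mean CPM in each role, and, for C1q, the 3 genes of nearest profile among those with at least 100 counts in every sample. One gene that this rule names among the regulators is counted but not reported here. T cell markers summed to 36.4 to 60.3 CPM, eosinophil and mast cell markers to 13.6 to 20.7 CPM, recruited monocyte markers to 3353 to 6259 CPM and macrophage markers, in which Lyz2 dominates, to 16590 to 34670 CPM.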

Additional observations from a re-analysis of the deposited data

How the results depend on the processing

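No alternative on all 4 samples changed the direction of any of the 9 complement genes, and none gave one of them an adjusted p under 0.05. These alternatives were DESeq2, limma-voom, DESeq2 size factors in edgeR, no filter, at least 10 counts in every sample, the replicate block, the length correction and the crossed pairing, which was chosen after seeing the data. In the fit with a replicate block, the log2 fold change of C4b was -0.86 and that of C3 0.01 (adjusted p of 1.00 each, edgeR), against -0.51 and 0.19 without it. Limma-voom moved the same genes to -0.87 and 0.02. The length correction moved C3 to 0.30, Cfp from 0.10 to 0.02, C1qb from -0.11 to -0.19 and C1qc from -0.08 to -0.13, and totals without scaling factors moved summed C1q from -0.12 to -0.19. The block changed no call, with 0 genes at an adjusted p under 0.05 and 34 at an unadjusted one. Same-numbered samples deviated in opposite directions, with a correlation of -0.35 across genes, and crossing the numbers gave 3 and 297 genes, and 2 of the other complement genes (Clu and Fcna, Clu chosen after its values were seen) and 1 of the 9, C4b, at an unadjusted p under 0.05. DESeq2 gave 1 gene at an adjusted p under 0.05, and no filter gave 60 at an unadjusted one, against 0 and 35.

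Leaving out 1 sample moved most results. Genes at an adjusted p under 0.05 ran from 0 to 1061 and at an unadjusted one from 43 to 3521, both highest without Dnmt1KO replicate 2, and the other complement genes from 0 to 10. Log2 fold changes ran from -0.44 to 0.15 for C1qa, -0.27 to 0.073 for C1qb, -0.29 to 0.16 for C1qc, -1.25 to 1.13 for C3, -1.97 to 0.20 for C4b, -1.17 to 0.55 for Cfb, -0.0306 to 0.25 for Cfp, 0.02 to 0.23 for C3ar1 and -0.27 to 0.58 for C5ar1. The log2 ratio of summed C1q ran from -0.32 to 0.11. The cause was not tested. Counting error adds little to the width of the intervals, since each of the 9 genes had at least 1366 counts in every sample. The width rests on the spread between samples as the fit estimates it, in part shared across genes.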
